A study of Rattus norvegicus with 6 samples.

Results

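Respiratory complex I was described through the 39 nuclear genes whose symbol starts with Nduf, out of 15284 genes named on the arrays. They were chosen by name and not by any measured value. Of them, 7 encode core subunits, 25 accessory subunits and 6 assembly factors, and the last is Ndufa4. They were read by 69 probes, each well above background on all 6 arrays, so all 39 were tested. The table of rat genes held 56 protein-coding Nduf symbols, and the 17 without a named probe, among them Ndufs6, Ndufa8, Ndufa13 and Ndufaf6, were not analysed here. No probe was named for the mitochondrially encoded subunits, which were also not analysed here.

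Complex I, NADH:ubiquinone oxidoreductase, is the largest enzyme of the mitochondrial respiratory chain. It takes electrons from NADH, passes them along a flavin and a chain of iron-sulphur clusters to ubiquinone, and pumps protons across the inner membrane. The core subunits carry the catalytic centres and the proton channels, the accessory subunits surround and stabilise them, and the assembly factors build the enzyme without being part of it. Hepatocytes, the main cells of liver, are rich in mitochondria.

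Liver RNA came from 6 male Sprague-Dawley rats, bought at 5 weeks of age, with 3 animals given vehicle and 3 dosed with 1000 mg/kg/day of tert-butyl alcohol (tBA), a solvent and fuel additive. The sample labels named purified water as the vehicle and the treatment protocol named corn oil. Dosing lasted 28 days by the series description and 9 weeks by the treatment protocol. Each animal had 1 single-colour array. Liver is a mixture of cells, and in such RNA fewer cells of a type and less RNA per cell cannot be told apart.

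The 4 arrays of slide 1 were the vehicle group and tBA replicate 1, while tBA replicates 2 and 3 were on slide 2, in a scan of its own. Of 61657 probes, 61.5% to 66.9% per array were well above background, with no saturated spots. The median local background was 24 to 30 on slide 1 and 38 and 42 on slide 2. All 10 hepatocyte markers were measured, with a summed level of 4539 to 4917 times the array's 75th percentile in the vehicle group and 4584 to 4798 in the tBA group. Skeletal muscle markers, from another mitochondria-rich tissue, summed to 1.31 to 1.45 in the vehicle group and 1.47, 1.80 and 1.66 on tBA replicates 1 to 3, over the 11 of 12 with a probe. Myh1, Myh4, Myl1 and Pvalb among them were not well above background on any array. Endothelial markers, 4 of 6 measured, were all higher (against 50.6% of all genes), with 1 at an unadjusted limma p under 0.05. They summed to 58.1 to 68.4 in the vehicle group and 69.4 to 71.1 in the tBA group. Of the markers tested, all 4 pancreatic acinar and all 3 adipocyte markers were higher too. Only 1 of 7 stellate, 1 of 6 macrophage, 1 of 5 T and NK cell and 0 of 2 B cell markers were higher. Bile duct (3 of 5) and red blood cell markers (2 of 4) were mixed. The 39 Nduf genes summed to 1748 to 1793 in the vehicle group and to 1867, 1945 and 2025 on tBA replicates 1 to 3, and the part of other tissues or cell types in their values was not tested.

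The study compared livers of dosed and control animals for differences in transcript level. None of the 39 Nduf genes passed a Benjamini-Hochberg adjusted p of 0.05 in limma, where 0.0451% of the 11093 genes tested did, and the smallest adjusted p of a Nduf gene was 0.194. At an unadjusted limma p under 0.05, 4 Nduf genes were higher (10.3%, against 7.64% of all genes) and 0 were lower (against 7.44%). In the brightest 10% of all genes by mean probe signal, where most Nduf genes lay, the shares were 14.1% and 2.7%. The 4 were the accessory subunits Ndufa6, of the matrix arm, and Ndufb2 and Ndufb4, of the membrane arm, and Ndufaf4, an assembly factor. This count was 7 without tBA replicate 1, 2 without tBA replicate 3 or vehicle replicate 1, and 1 without vehicle replicate 2. The shares of all genes with an array left out are not given here. With 3 arrays against 3, the exact two-sided permutation test cannot go below p = 0.1.

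Signals below are log2 of the processed signal relative to the array's 75th percentile, and differences are tBA minus vehicle on that scale. The differences of the Nduf genes ran from -0.26 to 0.42, with SEs of 0.076 to 0.15 and a median of 0.092, against a median of 0.0032 over all genes. Of the 39, 33 were above 0 (84.6%, against 50.6% of all genes), but under quantile normalization only 21 were (53.8%) and the median was 0.0032. Under median normalization 38 of the 39 (97.4%) and 62.8% of all genes were above 0. The tBA and vehicle values did not overlap in 11 Nduf genes that were higher (28.2%, against 12.8% of all genes) and in 1 that was lower (2.56%, against 11.3%). The 1 lower gene was Ndufaf7. Under quantile normalization 5 were higher and 4 lower, and the shares of all genes under it are not given here.

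**Figure D1:**
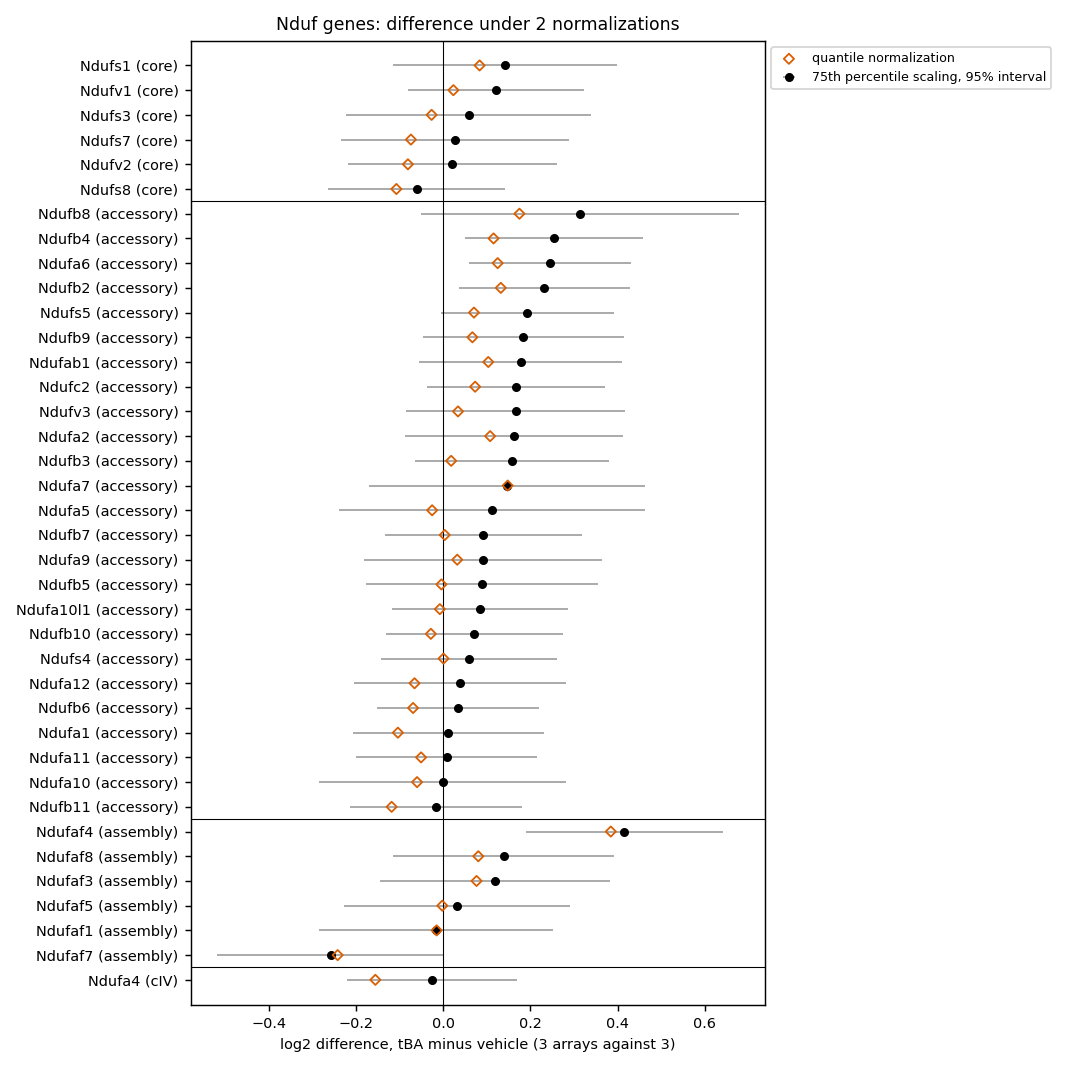
Log2 difference of 38 Nduf genes, tBA minus vehicle, with 3 arrays in each group. Black points are values scaled by the 75th percentile, bars are 95% confidence intervals of the limma difference, and open diamonds are the values after quantile normalization; 32 of the 38 black points and 20 of the 38 diamonds drawn lie above 0.

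The probes of most Nduf genes were among the brightest on the arrays, which is a property of the probes and does not rank the genes' transcript levels. Of the 39, 25 were in the brightest 10% of the genes tested, by mean probe signal, and 7 in the next 10%. All 1110 genes of the brightest 10% had a median difference of 0.098, with 70.6% above 0, while the dimmest 10% had a median of -0.090. The 25 Nduf genes in the brightest 10% had a median of 0.11, and 23 of them were above 0. In that 10% as a whole the groups did not overlap in 28.6% of genes that were higher and 5.86% that were lower, beside 28.2% and 2.56% of the 39 Nduf genes, which include 14 outside it. Under quantile normalization the median of the brightest 10% was 0.0039, with 51.0% above 0.

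**Figure D2:**
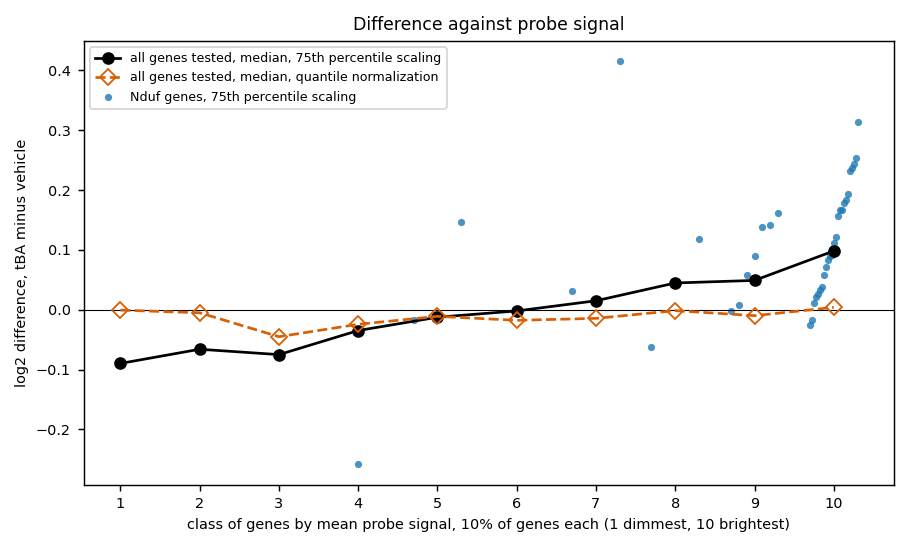
Log2 difference, tBA minus vehicle, against the class of mean probe signal, from 1 (dimmest 10%) to 10 (brightest 10%), for the 11093 genes tested. Black circles are medians over all genes after scaling by the 75th percentile, running from -0.090 to 0.098, orange diamonds are medians after quantile normalization, which stay nearer 0, and blue points are the 39 Nduf genes, offset sideways within a class for legibility.

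Over the Nduf genes the tBA array of slide 1 lay apart from those of slide 2. Relative to each gene's vehicle mean, the median over the 39 Nduf genes was -0.018, -0.0015 and 0.011 on the vehicle arrays and 0.0092, 0.12 and 0.19 on tBA replicates 1, 2 and 3. The tBA array that shared a slide with the vehicle arrays thus lay within their range, and both slide 2 arrays lay above it. The brightest 10% of all genes was at 0.093, 0.10 and 0.11 on the same tBA arrays, with slide 1 and slide 2 arrays close together. On tBA replicate 1 alone, 14 Nduf genes were above all 3 vehicle values (35.9%, against 31.9% of all genes) and 10 were below them (25.6%, against 26.2%). In the brightest 10% these shares were 50% above and 13.2% below. Both slide 2 arrays were above all 4 slide 1 arrays in 21 Nduf genes (53.8%, against 12.8% of all genes and 27.1% of the brightest 10%). They were below all 4 in 0 Nduf genes (against 13.4% of all genes). Without tBA replicate 1 the median difference of the Nduf genes was 0.15, against -0.0012 over all genes. Slide 2 held no vehicle array, so in tBA replicates 2 and 3 the slide and the treatment cannot be told apart. Slide 1 held a single tBA animal, so between the tBA arrays the slide and the animal cannot be told apart either.

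**Figure D3:**
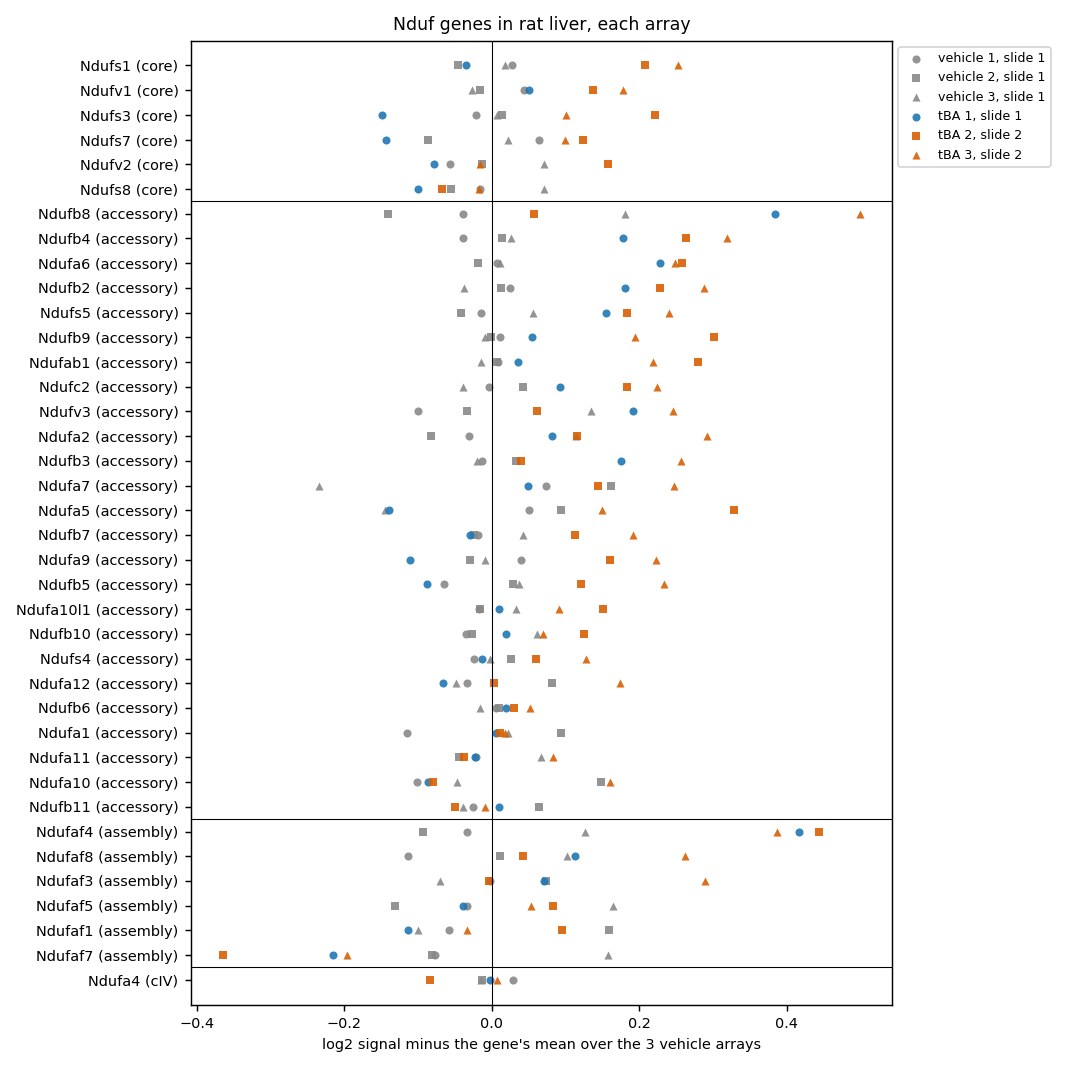
Signal of 38 Nduf genes on each of the 6 arrays, as log2 signal minus the mean of its 3 vehicle values; grey symbols are vehicle arrays, the blue circle is tBA replicate 1 on slide 1, and orange symbols are tBA replicates 2 and 3 on slide 2. In 20 of the 38 genes both orange symbols lie to the right of the other 4, and for Ndufaf4 and Ndufa6 the blue circle lies beside them.

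The 7 nuclear core subunits, as a median, lay apart on the 2 slides. Their median difference was 0.058, with 6 above 0, and 3 above 0 under quantile normalization. Relative to the vehicle mean, their median was -0.078 on tBA replicate 1 and 0.16 and 0.10 on tBA replicates 2 and 3. In 4 of the 7, Ndufs3, Ndufs7, Ndufs8 and Ndufv2, tBA replicate 1 was below all 3 vehicle values. That held for 26.2% of all genes and 13.2% of the brightest 10%, where 5 of the 7 lay. In 5 of the 7 both slide 2 arrays were above all slide 1 arrays. This was so in 12.8% of all genes and 27.1% of the brightest 10%.

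Of the core subunits that take electrons from NADH, Ndufv1 binds the flavin, and its signal was 5.74, 5.68 and 5.67 on vehicle replicates 1 to 3 and 5.74, 5.83 and 5.87 on tBA replicates 1 to 3. It was the 1 core gene whose groups did not overlap, with tBA replicate 1 just above the highest vehicle array. Its difference was 0.12 (SE 0.083, limma adjusted p = 0.492), and its other probe was at -0.032. The brightest probe was at 0.023 under quantile normalization and 0.050 on tBA replicate 1 alone. Ndufv2, which holds an iron-sulphur cluster next to the flavin, was at 5.91, 5.96 and 6.04 in the vehicle group and 5.89, 6.13 and 5.95 in the tBA group. The groups overlapped, with the highest and the lowest of the 6 values both on tBA arrays. Its difference was 0.021 (SE 0.099) and -0.047 without tBA replicate 2 and -0.0076 without vehicle replicate 1. Ndufs1, the large subunit that carries clusters on from there, was at 3.77, 3.70 and 3.76 in the vehicle group and 3.71, 3.95 and 3.99 in the tBA group. Here tBA replicate 1 lay inside the vehicle range and the slide 2 arrays above it, for a difference of 0.14 (SE 0.11) with tBA replicate 1 alone at -0.035. It was 0.23 without tBA replicate 1, 0.086 without tBA replicate 3 and 0.083 under quantile normalization.

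Of the core subunits that pass electrons on to ubiquinone, Ndufs3 was at 4.78, 4.81 and 4.81 in the vehicle group and 4.65, 5.02 and 4.90 in the tBA group. The vehicle values lay between tBA replicate 1 below and tBA replicates 2 and 3 above, with a difference of 0.058 (SE 0.12) that was -0.024 without tBA replicate 2. Ndufs7, which carries the last cluster before ubiquinone, was at 5.99, 5.84 and 5.95 in the vehicle group and 5.78, 6.05 and 6.03 in the tBA group. It split in the same way around the vehicle values, and its difference of 0.027 (SE 0.11) was -0.022 without tBA replicate 2, -0.0098 without tBA replicate 3 and -0.017 without vehicle replicate 2. Ndufs8, an iron-sulphur subunit between Ndufs1 and Ndufs7 in the electron path, was at 2.89, 2.86 and 2.98 in the vehicle group and 2.81, 2.84 and 2.89 in the tBA group. The groups overlapped through tBA replicate 3, and this was the 1 core gene with a negative difference, -0.062 (SE 0.084), although it was at 0.012 under median normalization.

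The 25 accessory subunits had a median difference of 0.11, with 23 above 0, and 15 above 0 under quantile normalization. In 9 the tBA values were all above the vehicle values and in 0 all below. These shares were 12.8% and 11.3% of all genes, and 28.6% and 5.86% of the brightest 10%, where 19 of the 25 lay. The 9 were Ndufa6, Ndufab1, Ndufb2, Ndufb3, Ndufb4, Ndufb6, Ndufb9, Ndufc2 and Ndufs5, with differences from 0.034 in Ndufb6 to 0.25 in Ndufb4. Relative to the vehicle mean their median was 0.020 on tBA replicate 1 and 0.12 and 0.22 on tBA replicates 2 and 3, with the slide 1 array lowest, as in the core genes. By name series, the 11 Ndufa genes (Ndufab1 among them) had a median of 0.091 with 10 above 0, the 10 Ndufb genes 0.12 with 9 above 0, and the 4 Ndufc, Ndufs and Ndufv genes 0.17 with all 4 above 0. The accessory genes with negative differences were Ndufa10 at -0.0019 and Ndufb11 at -0.017.

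Ndufa6, an accessory subunit of the LYR protein family that binds the acyl carrier protein Ndufab1, was at 7.13, 7.10 and 7.13 in the vehicle group and 7.35, 7.38 and 7.37 in the tBA group. All 3 tBA arrays lay above all vehicle arrays, and those of the 2 slides lay together. Its difference was 0.24 (SE 0.076, limma adjusted p = 0.258), 0.23 on tBA replicate 1 alone and 0.12 under quantile normalization. Ndufab1 itself was at 4.93, 4.93 and 4.90 in the vehicle group and 4.95, 5.20 and 5.14 in the tBA group. It too did not overlap, but its tBA replicate 1 lay close to the vehicle arrays, and its difference was 0.18 (SE 0.096, limma adjusted p = 0.402). Ndufab1 was singled out after its values were seen.

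Ndufb2, a small subunit of the membrane arm, was at 5.87, 5.86 and 5.81 in the vehicle group and 6.03, 6.08 and 6.14 in the tBA group. The tBA arrays of both slides lay above the vehicle arrays, with a difference of 0.23 (SE 0.081, limma adjusted p = 0.280) and 0.18 on tBA replicate 1 alone. Ndufb4, also of the membrane arm, was at 6.56, 6.61 and 6.63 in the vehicle group and 6.78, 6.86 and 6.92 in the tBA group. Its groups did not overlap either, with a difference of 0.25 (SE 0.084, limma adjusted p = 0.269), but its 3 probes ran from 0.032 to 0.27, and since the gene table also lists Ndufb4-like genes and pseudogenes its values are uncertain. Under quantile normalization Ndufb2 was at 0.13 and Ndufb4 at 0.12. Ndufb8, a subunit whose protein is often probed as a marker of assembled complex I, was at 6.83, 6.73 and 7.05 in the vehicle group and 7.25, 6.93 and 7.37 in the tBA group. It had the largest difference of the accessory genes, 0.31 (SE 0.15, limma adjusted p = 0.362), but tBA replicate 2 lay below vehicle replicate 3, and the difference was 0.17 under quantile normalization.

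The 6 assembly factors included both the highest and the lowest difference among the 39 genes. Their median was 0.075, with 4 above 0 and 3 above 0 under quantile normalization. In 0 of the 6 were both slide 2 arrays above all slide 1 arrays, against 12.8% of all genes. None of the 6 lay in the brightest class of probe signal. With only 6 genes, a count of 0 does not set them apart from the share of all genes. Ndufaf4, which acts in early steps of assembly, was at 1.33, 1.27 and 1.49 in the vehicle group and 1.78, 1.81 and 1.75 in the tBA group. The 3 tBA values lay close together above the vehicle range, with tBA replicate 1 between the slide 2 arrays. The difference was 0.42 (SE 0.093, 95% interval 0.19 to 0.64), a 1.33-fold higher signal (1.14 to 1.56), with a limma adjusted p of 0.194. It was the lowest adjusted p among the 39 and did not pass. Over 19 alternatives the difference ran from 0.37 to 0.53 and the adjusted p from 0.131 to 0.633, with 0.38 under quantile normalization and 0.42 on tBA replicate 1 alone.

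Ndufaf4 was read by 4 probes, which gave differences of 0.42 to 0.62. The first of the other 3 was at -2.06, -2.14 and -2.26 in the vehicle group and -1.73, -1.50 and -1.63 in the tBA group. The next was at -2.31, -2.34 and -2.08 against -1.67, -1.51 and -1.68, and the last at -2.53, -2.62 and -2.52 against -2.24, -1.88 and -1.96, vehicle against tBA. On each of the 4 probes all tBA arrays were above all vehicle arrays. Probes of 1 gene on the same arrays share their RNA and are not replicates.

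Ndufaf7, a methyltransferase that acts during assembly, was at -0.63, -0.63 and -0.39 in the vehicle group and -0.77, -0.92 and -0.75 in the tBA group. It was the 1 Nduf gene with all tBA values below all vehicle values, those of slide 1 and slide 2 alike. Its difference was -0.26 (SE 0.11, 95% interval -0.52 to 0.0022, limma adjusted p = 0.319), while its other probe was at -0.10 with overlapping groups. Ndufaf1, a chaperone of membrane arm intermediates, was at -0.17, 0.047 and -0.21 in the vehicle group and -0.22, -0.016 and -0.14 in the tBA group. The groups overlapped, and the difference of -0.017 (SE 0.11) was 0.031 without tBA replicate 1, 0.062 without vehicle replicate 2 and 0.056 under median normalization. The other 3, Ndufaf3, Ndufaf5 and Ndufaf8, were at 0.12, 0.032 and 0.14, each with overlapping groups.

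**Figure D4:**
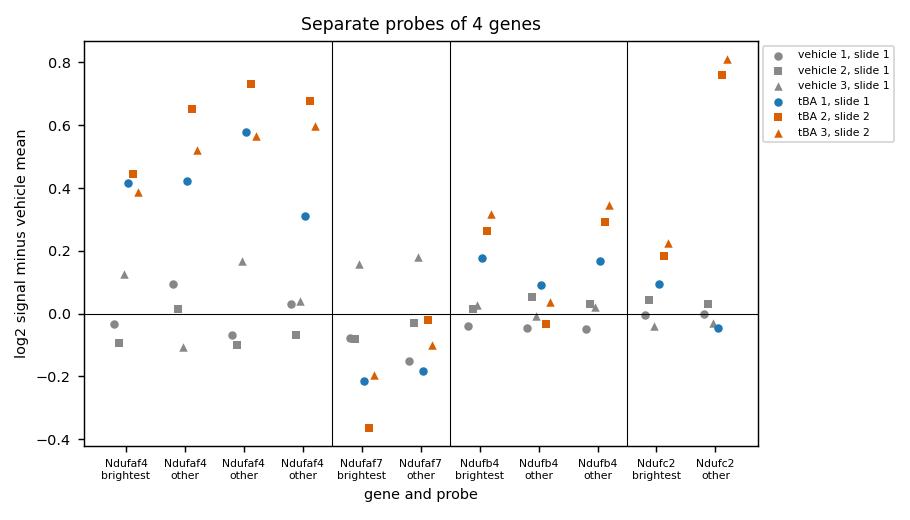
Each probe of Ndufaf4, Ndufaf7, Ndufb4 and Ndufc2 on each array, as log2 signal minus the probe's vehicle mean, with colours as slides: grey for vehicle and blue for tBA replicate 1 on slide 1, orange for tBA replicates 2 and 3 on slide 2. All 4 Ndufaf4 probes have the 3 tBA arrays above the vehicle arrays, while the second Ndufc2 probe has only the slide 2 arrays above.

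Ndufa4, named as a complex I subunit and since assigned to complex IV, was at 6.53, 6.49 and 6.48 in the vehicle group and 6.50, 6.42 and 6.51 in the tBA group. The groups overlapped, with a difference of -0.026 (SE 0.080) that was 0.0027 without tBA replicate 2 and 0.047 under median normalization.

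Of the 19 Nduf genes with several probes, 12 had all probes of the same sign and 7 did not. The 7 ranged from -0.024 to 0.012 in Ndufa1, -0.088 to 0.11 in Ndufa10l1, -0.065 to 0.037 in Ndufa12, -0.043 to 0.058 in Ndufs4, -0.061 to 0.027 in Ndufs7, -0.032 to 0.12 in Ndufv1 and -0.12 to 0.17 in Ndufv3. Ndufa10 and Ndufa10l1 are close copies, so their separate values are uncertain. The widest spread between probes was in Ndufc2, a membrane arm subunit, which was singled out after its values were seen. Its brightest probe was at 5.49, 5.53 and 5.45 in the vehicle group and 5.58, 5.67 and 5.71 in the tBA group, a difference of 0.17. Its other probe was at 0.41, 0.44 and 0.38 against 0.36, 1.17 and 1.22, a difference of 0.51. On that probe tBA replicate 1 was below the vehicle arrays and both slide 2 arrays far above them.

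Promoters were looked up for the 4 genes with an unadjusted limma p under 0.05, since these had the lowest p among the 39. The 200 bases before the start of each gene are given 5′ to 3′ on the gene's own strand, from RefSeq on GRCr8: Ndufaf4 at chr5:43401595-43401794 (+), Ndufa6 at chr7:115750318-115750517 (-), Ndufb2 at chr4:69334107-69334306 (+) and Ndufb4 at chr11:76568978-76569177 (+). Capitals mark the letters GCGCATGC or, for the other strand, GCATGCGC. These letters are a form of the core of the site of NRF-1, a transcription factor known at promoters of many respiratory chain genes.
Ndufaf4: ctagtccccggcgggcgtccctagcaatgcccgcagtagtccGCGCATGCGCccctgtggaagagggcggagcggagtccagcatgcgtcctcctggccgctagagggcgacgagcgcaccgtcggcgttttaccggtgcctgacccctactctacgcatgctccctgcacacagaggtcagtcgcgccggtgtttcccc
Ndufa6: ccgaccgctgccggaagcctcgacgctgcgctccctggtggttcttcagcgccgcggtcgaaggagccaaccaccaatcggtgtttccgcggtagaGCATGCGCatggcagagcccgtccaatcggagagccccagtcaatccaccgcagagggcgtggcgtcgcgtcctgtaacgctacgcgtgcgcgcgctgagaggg
Ndufb2: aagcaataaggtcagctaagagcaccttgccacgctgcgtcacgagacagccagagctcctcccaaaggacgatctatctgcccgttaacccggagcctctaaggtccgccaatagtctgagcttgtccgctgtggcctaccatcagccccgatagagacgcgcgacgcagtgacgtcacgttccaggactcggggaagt
Ndufb4: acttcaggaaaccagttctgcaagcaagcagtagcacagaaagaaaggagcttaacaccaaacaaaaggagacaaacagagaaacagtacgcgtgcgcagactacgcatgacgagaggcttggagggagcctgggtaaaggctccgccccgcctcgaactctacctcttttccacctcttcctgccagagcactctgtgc

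Ndufaf4 and Ndufa6 held these letters and Ndufb2 and Ndufb4 did not. Other forms of the NRF-1 core were not searched for, so a promoter without these exact letters may still hold one. In Ndufaf4 matches on both strands overlapped, at -158 and -156 from the start, and in Ndufa6 the match began at -104. Over windows of 300 bases, 250 before and 50 after the start, 36 of the 39 Nduf genes had an entry and 4 of them held the letters (11.1%), the other two being Ndufa11 and Ndufaf5. They were in 4.50% of 9103 tested genes with an entry and 2.47% of all 33469 promoters. The ETS core CCGGAAGT (ACTTCCGG on the other strand) was in 2 of the 36 (5.56%), Ndufs1 and Ndufb7, against 7.87% of tested genes and 3.81% of all promoters. The YY1 core AAGATGGC (GCCATCTT on the other strand) was in 7 of the 36 (19.4%), against 5.03% and 3.17%. These were Ndufa2, Ndufa6, Ndufa9, Ndufaf8, Ndufb8, Ndufs4 and Ndufs7, and in each the match began 3 to 27 bases after the start. A match describes letters and is no evidence of binding, and the 4 genes with NRF-1 letters had differences of 0.42 (Ndufaf4), 0.24 (Ndufa6), 0.032 (Ndufaf5) and 0.0073 (Ndufa11).

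Complex I assembly factors with other names were listed too, and 9 of 11 were measured. Their median difference was 0.073, with 7 above 0 (against 50.6% of all genes) and 2 below. Rtn4ip1, a mitochondrial oxidoreductase involved in coenzyme Q synthesis and complex I assembly, was at -0.046, -0.62 and -0.23 in the vehicle group and -3.45, -2.86 and -3.04 in the tBA group. It fell by 2.81 on the log2 scale (SE 0.21, limma adjusted p = 0.0161), in the tBA arrays of both slides, and was known from earlier results of these data when it was listed. The call ended in 9 of 19 alternatives, with adjusted p of 0.0072 to 0.218 over all of them. Among these, leaving out tBA replicate 2 gave an adjusted p of 0.0733, tBA replicate 3 gave 0.0817, vehicle replicate 1 gave 0.0627 and vehicle replicate 3 gave 0.0790. None of the 39 Nduf genes was lower by more than 0.26.

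The subunits of the other oxidative phosphorylation complexes were read in the same way. Of 40 listed subunits of complexes II to V, 36 were measured, 32 of them in the brightest 10%. Their median difference was 0.13, with 33 above 0, against 50.6% of all genes and 70.6% of the brightest 10%. Under quantile normalization 21 were above 0. The medians of the 36 were -0.0024 on tBA replicate 1 and 0.17 and 0.18 on tBA replicates 2 and 3. The slide 1 array was lowest, as in the Nduf genes. Both slide 2 arrays were above all slide 1 arrays in 28 of the 36, against 12.8% of all genes and 27.1% of the brightest 10%. None passed the adjusted p. At an unadjusted limma p under 0.05, 5 were higher (against 7.64% of all genes and 14.1% of the brightest 10%) and 0 lower. The complex III subunit Uqcrq was at -0.12, 0.16 and 0.27 in the vehicle group and 0.55, 1.30 and 0.76 in the tBA group, a difference of 0.77. Cox7c of complex IV differed by 0.37, Uqcr10 of complex III by 0.24 and Atp5f1e of ATP synthase by 0.22. Under quantile normalization Uqcr10 was at 0.14 and Atp5f1e at 0.10, and within slide 1 Uqcrq was at 0.44 and Cox7c at 0.18. The difference between the Nduf genes and these subunits was not tested.

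**Figure D5:**
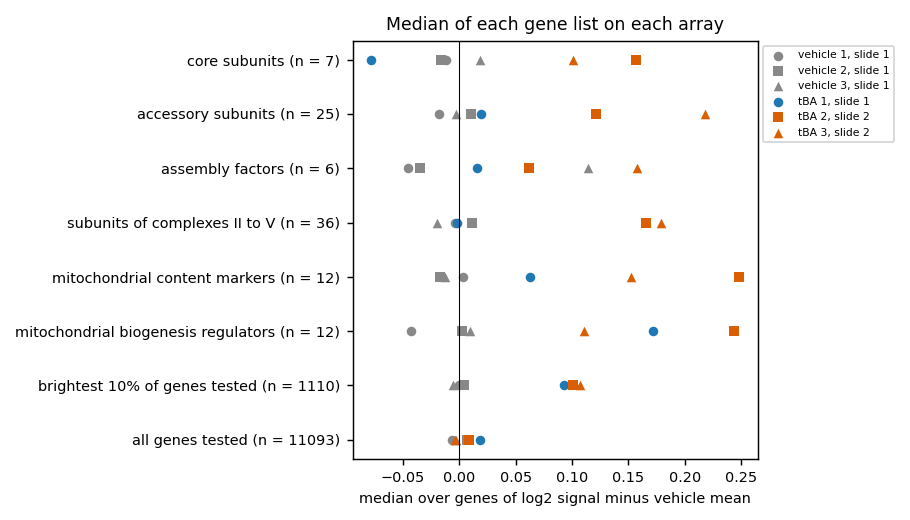
Median over the genes of each list of log2 signal minus the gene's vehicle mean, on each of the 6 arrays; n is the number of genes tested. Core and accessory subunits and complexes II to V have tBA replicate 1 (blue) at -0.078, 0.020 and -0.0024 and the slide 2 arrays (orange) at 0.10 or higher, while the brightest 10% of all genes has the 3 tBA arrays together at 0.093 to 0.11.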

How the data were processed

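Cy3-labelled cRNA was measured on Agilent arrays. Per the file headers, the authors read each spot's intensity with Feature Extraction version 10.7.1.1 (10.7 in the submitters' processing notes), which subtracts background; the array annotation uses rn4. The deposited series table holds a linear ratio of that signal to 1 divisor per array, near its 75th percentile, and served as an alternative.

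The measure was log2 of the authors' processed signal minus the array's 75th percentile over 61657 probes, without control spots and the 3 to 16 spots marked as outliers. The 37647 probes that were well above background throughout 1 group or both entered a single model (R 4.3.3, limma 3.58.1, functions lmFit and eBayes), with Benjamini-Hochberg adjustment over all of them. A gene took its probe of highest mean signal. Of the probes, 27460 were named with 15284 symbols through accessions in the RefSeq table of GRCr8. The number of arrays limits the precision.

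The Nduf genes, lists and tests were chosen with earlier results of these data known; the brightness classes and the ETS and YY1 letters were added after their values could be seen. A single gene is not reported here by itself and stays in the fits and counts. Otherwise named with values were the core subunits, genes at an unadjusted p under 0.05, the 4 highest and 4 lowest differences, genes with probes of opposite sign, Ndufa4, and up to 4 genes of each other list by smallest p. Alternatives were normexp (offset 50, on the median signal, since the mean signal was not used here), quantile and median normalization, the authors' table, scaling on detected probes, a looser and a stricter filter, an intensity trend, the mean of a gene's probes, slide 1 by itself, blocks for slide or replicate, and each array left out. The fit was tested on simulated data. Python 3.11.15, pandas 2.3.3, numpy 2.4.6 and matplotlib 3.10.9 made tables and figures.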

Additional observations from a re-analysis of the deposited data

How the results depend on the processing

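No Nduf gene passed the adjusted p under any of the 19 alternatives. The median difference of the Nduf genes, 0.092, was 0.16 under median normalization, 0.0032 under quantile normalization and 0.0092 both within slide 1 and with slide as a fixed block, which each rest on tBA replicate 1 alone; leaving out each array gave 0.072 to 0.15. The 33 Nduf genes above 0 became 21 under quantile normalization, within slide 1 and with slide as a fixed block, and 30 to 35 with an array left out. The 4 at an unadjusted limma p under 0.05 became 8 with an intensity trend, 9 under median normalization, and 1 under quantile normalization, within slide 1 and with slide as a fixed block, and 1 to 7 with an array left out. The 12 whose groups did not overlap became 8 with the percentile over detected probes and 9 by the mean of all probes or under quantile normalization. Within slide 1 they were 14 higher (35.9%, against 31.9% of all genes) and 10 lower (25.6%, against 26.2%), near the shares of all genes. With an array left out they were 13 to 24, where fewer arrays are compared and groups separate more easily. For this count and the count by unadjusted p, shares of all genes at the other settings are not given here. Changes in these 2 counts are therefore not read as a result about the Nduf genes.

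Replicate numbers shared between the groups did not pair the animals: deviations of same-numbered arrays correlated at -0.056, -0.064 and 0.014. With a replicate block, 2 Nduf genes had an unadjusted p under 0.05, 33 were above 0, and 6 probes of all tested passed the adjusted p, against 43 without it. The block ended the call of Rtn4ip1 (adjusted p = 0.195).

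Of the genes followed singly through all 19 alternatives, 7 turned direction under at least 1. Nduf genes not followed in this way turned too. Under quantile normalization, for instance, Ndufb6 was at -0.070, Ndufa11 at -0.051 and Ndufaf5 at -0.0025. The rest of this paragraph is about the genes followed singly. Within slide 1 and with slide as a fixed block, Ndufs1 was at -0.035, Ndufs3 at -0.15, Ndufs7 at -0.14 and Ndufv2 at -0.078. Under quantile normalization Ndufs3 was at -0.027, Ndufs7 at -0.075 and Ndufv2 at -0.081. Under median normalization Ndufa4 was at 0.047, Ndufaf1 at 0.056 and Ndufs8 at 0.012. By the mean of its probes Ndufs7 was at -0.017, and with the percentile over detected probes Ndufv2 was at -0.0022. With an array left out, Ndufa4 ran from -0.043 to 0.0027, Ndufaf1 from -0.073 to 0.062, Ndufs3 from -0.024 to 0.16, Ndufs7 from -0.022 to 0.11 and Ndufv2 from -0.047 to 0.070. Ndufs7 was at -0.0098 without tBA replicate 3 and -0.017 without vehicle replicate 2, Ndufv2 at -0.0076 without vehicle replicate 1, and Ndufaf1 at 0.031 without tBA replicate 1. Ndufaf4, Ndufa6, Ndufb2, Ndufb4, Ndufb8 and Ndufv1 stayed above 0 and Ndufaf7 below 0 in all 19. With slide as a random block the fitted correlation between arrays of a slide was 0.0076. The cause of these changes was not tested. All 69 Nduf probes were well above background, with 3 arrays in each group.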

Other observations

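Regulators of mitochondrial biogenesis, the transcription factors, coactivators and mitochondrial transcription proteins that raise the amount of mitochondria, were read as a list of 12 genes, 0 of them in the brightest 10%. Of the 12, 10 were above 0 (against 50.6% of all genes), with a median difference of 0.20. Under quantile normalization 9 were above 0, with a median of 0.18. Relative to the vehicle mean the medians were 0.17, 0.24 and 0.11 on tBA replicates 1, 2 and 3, so the slide 1 array lay between the slide 2 arrays. None passed the adjusted p in limma, and 3, all higher, had an unadjusted limma p under 0.05 (against 7.64% of all genes). Tfb2m, a mitochondrial transcription factor, was at 1.16, 1.07 and 1.12 in the vehicle group and 1.43, 1.60 and 1.44 in the tBA group, a difference of 0.37. Tfam, which packages mitochondrial DNA and starts its transcription, was at 3.22 on each of the 3 vehicle arrays and 3.38, 3.55 and 3.39 on the tBA arrays, a difference of 0.22. Esrra, a nuclear receptor of respiratory genes, was at 3.38, 3.42 and 3.45 against 3.60, 3.68 and 3.71, a difference of 0.24. In each of the 3, and in no other of the 12, all tBA values were above all vehicle values (against 12.8% of all genes). The 3 were named for their low p, which favours groups that do not overlap.

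Markers of mitochondrial content, 12 genes of the outer membrane, import, cristae and matrix chaperones, had a median difference of 0.13. Of the 12, 7 lay in the brightest 10%, and 11 were above 0 (against 50.6% of all genes and 70.6% of the brightest 10%). Under quantile normalization 11 were above 0, with a median of 0.066. In 6 all tBA values were above all vehicle values (against 12.8% of all genes and 28.6% of the brightest 10%). In 1, at -0.14, all were below (against 11.3% and 5.86%). The medians of the 12 were 0.062 on tBA replicate 1 and 0.25 and 0.15 on tBA replicates 2 and 3. None passed the adjusted p in limma. The 4 with an unadjusted limma p under 0.05 were all higher, against 7.64% of all genes and 14.1% of the brightest 10%. Tomm22 and Tomm20, receptors of the import pore, were at 0.31 and 0.34, the channel Vdac3 at 0.26 and the chaperonin Hspd1 at 0.40. Tomm22 was at 4.59, 4.55 and 4.50 in the vehicle group and 4.83, 4.88 and 4.87 in the tBA group, with the arrays of both slides together. Hspd1 was at 6.22, 6.24 and 6.30 against 6.40, 6.88 and 6.68, with the slide 2 arrays furthest from the vehicle group, and was at 0.15 within slide 1 and 0.26 under quantile normalization. Vdac3 was at 0.17 under quantile normalization.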
